A study of Glycine max with 6 samples.

Results

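The genes described here are 7 soybean genes of abscisic acid synthesis and breakdown, out of 66184 gene IDs on the array. Leaf RNA of 6 single soybean plants (*Glycine max* cv. Williams 82, grown with 3 plants per pot) was hybridised, each to an array of its own. All plants had reached the V6 vegetative stage when water was first withheld, and the study describes beginning bloom by the day of sampling. The sampled leaf was trifoliate 4. The labels give an age of 28 days at the start, while the growth protocol puts V6 at 35 days. From 3 plants (1, 2 and 4) water was withheld for 6 days until the soil held 5% moisture, and 3 plants (14, 15 and 16) stayed well watered. Which plants shared a pot is not stated.

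The 7 genes were selected on this drought contrast. Of these, 5 stood in the study's list of differentially expressed hormone genes and 2 were taken from annotation rows of genes that the study called changed. Their drought differences are therefore given as a description, with no p-value, and the counts of calls among them are not evidence of a change. They are 3 best matches of the *Arabidopsis* zeaxanthin epoxidase (ZEP, also called ABA1), the best matches of the 9-cis-epoxycarotenoid dioxygenases NCED3, NCED5 and NCED4, and the best match of the abscisic acid 8'-hydroxylase CYP707A1.

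Abscisic acid is the hormone that closes stomata and drives much of the gene response when leaves lose water. It is made from carotenoids: ZEP turns zeaxanthin into violaxanthin in the plastid, NCED enzymes cleave the resulting 9-cis-epoxycarotenoids to xanthoxin, and xanthoxin is oxidised in the cytosol to abscisic aldehyde and then to the hormone. Cleavage by NCED is regarded as the rate-limiting step under water deficit. CYP707A hydroxylases open the main breakdown route, so the hormone level depends on both ends of the pathway.

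Every value below is a log2 signal relative to the median of that probe over the 6 arrays. A value of 0 thus means the probe's own median, not absence. Signal levels cannot be compared between genes, and the leaf label cannot be checked against markers on this scale. In the study, array folds and qRT-PCR folds differed to unlike degrees between genes. Sizes of change compared between genes are therefore sizes on the array only. Where the groups do not overlap, the innermost value of each group lies at the same distance from 0 by construction. A drought difference is the mean of the 3 drought-stressed plants minus that of the 3 well-watered plants, with the standard error (SE) of a limma fit to all probes. A probe was called when that difference reached a fold of at least 2 with a Benjamini-Hochberg adjusted p under 0.05.

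Of the 7 genes, 5 were called upregulated and 2 downregulated in the drought-stressed V6 leaves. Over all 66195 probes, 9.46% were called, 4.33% higher and 5.14% lower. With the methods' t-test at the same fold and adjusted p, 6 of the 7 were called against 5.75% of all probes, and the ZEP match Glyma01g39310 was the exception. The plants of the groups did not overlap for any of the 7 genes, nor did they for 31.3% of all probes. The median drought difference of the 7 genes was 2.11 on the log2 scale, and that of all probes was -0.05. Since this contrast chose the genes, nothing is read from these shares.

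**Figure D1:**
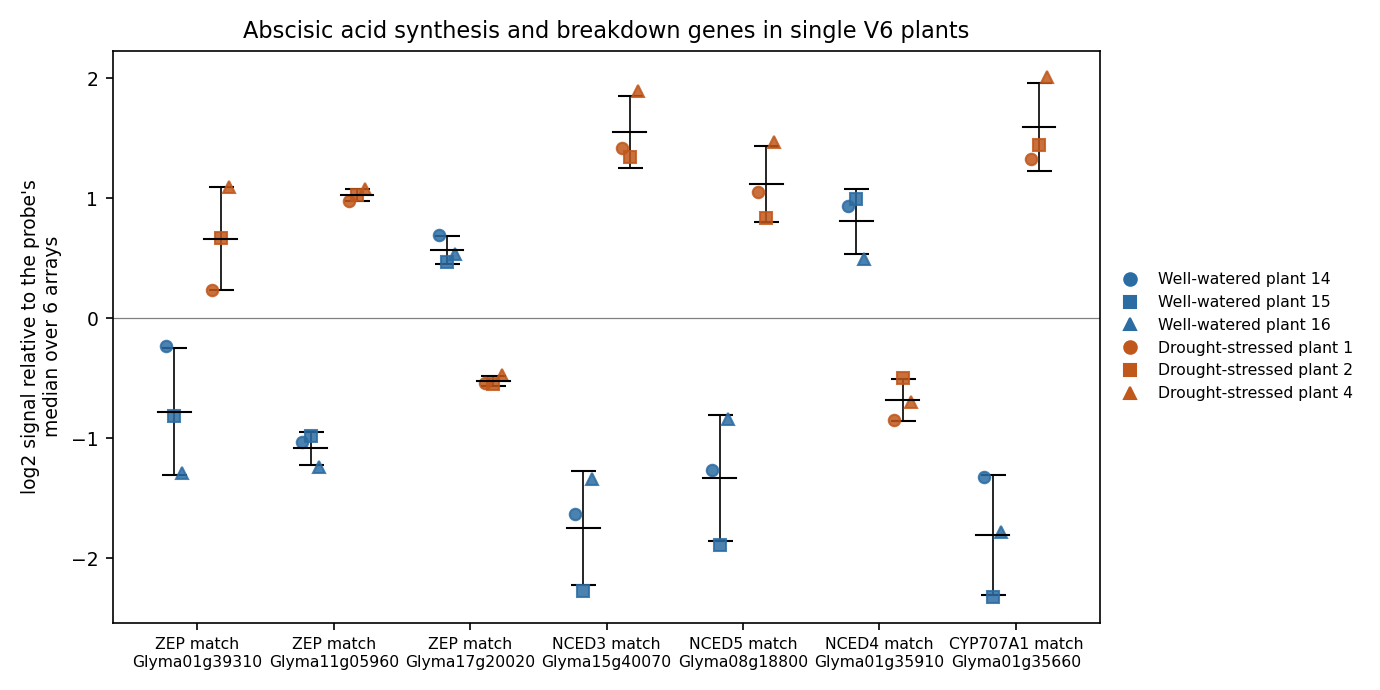
Log2 signal of each of the 7 genes in each plant, relative to the probe's median over the 6 arrays (vertical axis), with 1 column per gene. Blue symbols are well-watered and orange symbols drought-stressed plants, and bars give the mean and SD of 3 plants. The groups are apart in every column, drought-stressed plants being lower for ZEP match Glyma17g20020 and the NCED4 match and higher for the other 5.

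The 3 ZEP matches chosen here were split, and further ZEP genes were not looked for. Glyma11g05960 and Glyma01g39310 were upregulated and Glyma17g20020 was downregulated, although all 3 have ZEP as their best match. In well-watered plants 14, 15 and 16, Glyma11g05960 stood at -1.04, -0.98 and -1.24, and in drought-stressed plants 1, 2 and 4 at 0.98, 1.02 and 1.08. Plants within each group were almost level, with a gap of 1.96 between the groups. The drought difference was 2.11 (SE 0.16), a 4.33-fold rise.

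Glyma01g39310 stood at -0.23, -0.81 and -1.29 in well-watered plants and at 0.23, 0.67 and 1.09 in drought-stressed plants. Here the plants were spread out within both groups, and only 0.47 separated the highest well-watered plant (14) from the lowest drought-stressed plant (1). The drought difference was 1.44 (SE 0.29), a 2.72-fold rise, with the largest SE among the 7 genes.

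Glyma17g20020 ran the other way, at 0.70, 0.47 and 0.53 in well-watered plants and -0.54, -0.55 and -0.47 in drought-stressed plants. The groups were tight and 0.95 apart. Its difference of -1.09 (SE 0.16), a 2.13-fold fall, lay only 0.09 past the fold of 2. An alternative undid an offset between the groups in the study's values, here called the authors' shift. The difference was then -0.89 and the gene fell short of that fold.

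The epoxidase genes also differed in how uniform the plants were. The SD of Glyma11g05960 was 0.05 among drought-stressed and 0.14 among well-watered plants, and that of Glyma17g20020 was 0.04 and 0.12. In the drought-stressed group, 6.39% of all probes had a smaller SD than Glyma11g05960 and 4.58% a smaller SD than Glyma17g20020. In the well-watered group these shares were 21.5% and 15.5%. The study's calls rest on a t-test, which favours genes with a small SD, so low ranks may be partly built in. For Glyma01g39310 the SD was 0.43 and 0.53, and 92.4% of probes were less spread among drought-stressed plants. The median SD over all probes was 0.18 in drought-stressed and 0.24 in well-watered plants.

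Comparing genes within each plant removes what a whole array shares. The SE of every such within-plant difference, here and below, is the plain pooled one of 3 against 3 plants. It is not the limma SE and should not be compared with it. The value of Glyma11g05960 minus that of Glyma17g20020 was -1.73, -1.45 and -1.78 in well-watered plants and 1.52, 1.57 and 1.55 in drought-stressed plants. This within-plant contrast moved by 3.20 (SE 0.10), or 9.21-fold, with little spread within either group. Its groups had to be apart, because the former gene rose and the latter fell, each without overlap. Glyma01g39310 minus Glyma11g05960 gave 0.80, 0.17 and -0.05 against -0.74, -0.36 and 0.01. These groups overlapped, so the sizes of the 2 epoxidase rises were not separated plant by plant (difference -0.67, SE 0.34).

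Among the chosen cleavage genes, the matches of NCED3 and NCED5, both enzymes of abscisic acid synthesis in *Arabidopsis*, were upregulated. The NCED3 match Glyma15g40070 stood at -1.64, -2.27 and -1.34 in well-watered plants and 1.42, 1.34 and 1.90 in drought-stressed plants. The groups were 2.68 apart, the widest gap among the 7 genes, and the drought difference was 3.30 (SE 0.26), a 9.88-fold rise. Of all probes, 278 rose by more.

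The NCED5 match Glyma08g18800 stood at -1.27, -1.89 and -0.84 against 1.05, 0.84 and 1.47. The groups were 1.68 apart and the drought difference was 2.45 (SE 0.27), a 5.47-fold rise.

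These genes ranked the plants alike. In both, plant 15 was the lowest and plant 16 the highest of the well-watered group, and plant 2 was the lowest and plant 4 the highest of the drought-stressed group. Within plants, Glyma15g40070 minus Glyma08g18800 was -0.37, -0.38 and -0.50 in the well-watered and 0.37, 0.50 and 0.43 in the drought-stressed group. The rise of the NCED3 match exceeded that of the NCED5 match by 0.85 (SE 0.06), or 1.81-fold, in groups that did not overlap. Whether probes of these related genes share signal was not tested.

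The NCED4 match Glyma01g35910 was downregulated. The *Arabidopsis* NCED4 is better known as carotenoid cleavage dioxygenase 4, which degrades carotenoids and is not counted among the abscisic acid enzymes. It stood at 0.94, 0.99 and 0.50 in well-watered plants and at -0.85, -0.50 and -0.70 in drought-stressed plants. The groups were 0.99 apart, and the difference was -1.49 (SE 0.19), a 2.81-fold fall.

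Among the chosen dioxygenase matches the contrast was therefore wide. Glyma15g40070 minus Glyma01g35910 moved by 4.80 (SE 0.47) between the groups, or 27.8-fold. The groups had to be apart here, because the former rose and the latter fell, each without overlap. Well-watered plant 15, the lowest for the NCED3 match, was the highest for the NCED4 match, while plant 16 was the highest for the former and the lowest for the latter.

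The chosen breakdown gene rose with the NCED3 and NCED5 matches. Other CYP707A genes were not looked for. Glyma01g35660, the CYP707A1 match, stood at -1.32, -2.32 and -1.78 in well-watered plants and 1.32, 1.44 and 2.01 in drought-stressed plants. The groups were 2.65 apart and the drought difference was 3.40 (SE 0.27), a 10.6-fold rise and the largest of the 7. Of all probes, 249 rose by more.

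Glyma15g40070 minus Glyma01g35660 was -0.31, 0.05 and 0.44 in well-watered plants and 0.10, -0.10 and -0.11 in drought-stressed plants. The groups overlapped and the mean moved by -0.10 (SE 0.23), so the rises of the NCED3 and CYP707A1 matches were not told apart. On the array, the NCED5 match rose less than the CYP707A1 match, by 0.95 (SE 0.28) without overlap. Against the NCED4 match, the CYP707A1 match was shifted 29.8-fold between the groups.

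**Figure D2:**
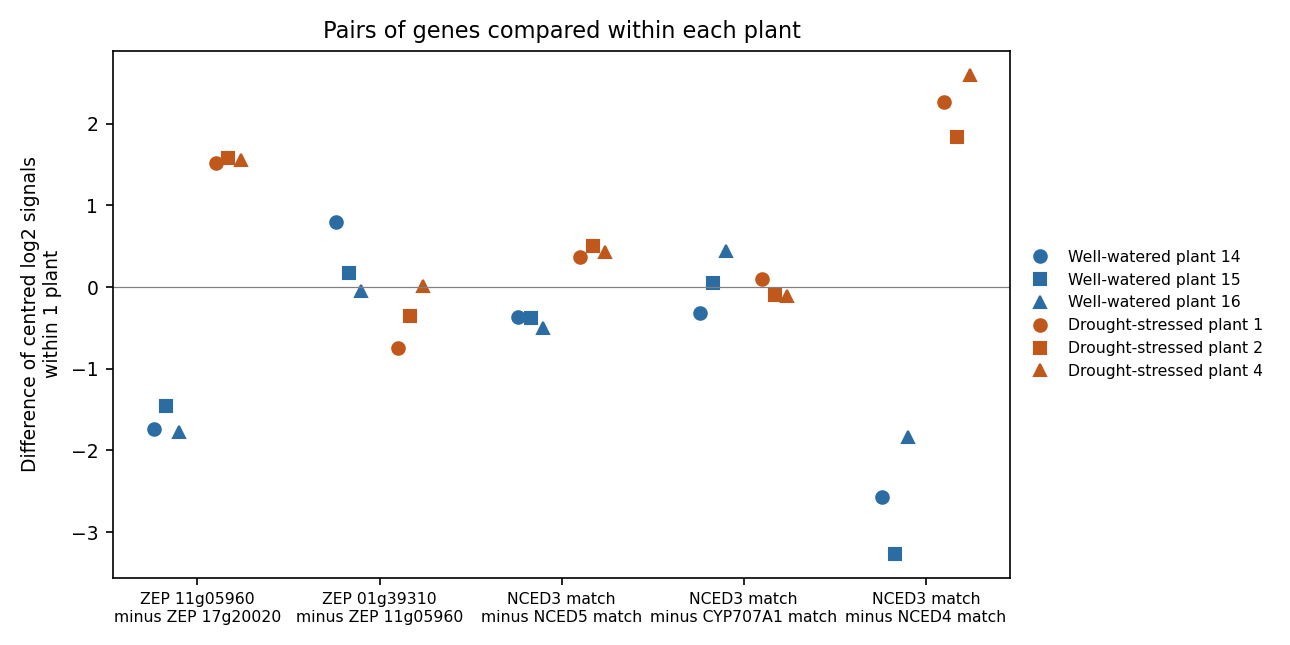
Value of a gene minus that of another in the same plant, on the log2 scale (vertical axis), for 5 pairs of genes. Drought-stressed (orange) and well-watered (blue) plants are apart in the leftmost, middle and rightmost pairs, whereas the ZEP pair Glyma01g39310 and Glyma11g05960 and the pair of NCED3 and CYP707A1 matches overlap. The leftmost and rightmost pairs set a rising against a falling gene, each without overlap, so they had to be apart.

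Ordered by drought difference, the genes ran from the CYP707A1 match (3.40) over the NCED3 match (3.30), the NCED5 match (2.45), Glyma11g05960 (2.11) and Glyma01g39310 (1.44) to Glyma17g20020 (-1.09) and the NCED4 match (-1.49). Neighbours in this order overlapped plant by plant except at 2 places, between the NCED3 and NCED5 matches and between the rising and falling ZEP matches. The latter break was fixed in advance, since those ZEP matches moved in opposite directions, each without overlap. Among the overlapping neighbours, the drop of the NCED4 match and that of Glyma17g20020 differed by 0.40 (SE 0.19). The order is one of array folds and need not hold for the RNA.

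Some plants lay at the edge of their group for several genes at once. Drought-stressed plant 4 was the highest of its group for 6 of the 7 genes, the NCED4 match being the exception. How often plant 4 was the highest over all probes was not computed, so nothing is read from this count. Well-watered plant 15 was the lowest of its group by about the same distance for the NCED3, NCED5 and CYP707A1 matches, at -0.52, -0.56 and -0.51 from the group mean. Its array median lay 0.01 from its group's mean, whereas those of plants 14 and 16 lay at 0.11 and -0.12. With 3 plants per group, the association of these deviations cannot be tested. The difference ranges when 1 plant was left out stayed within 3.15 to 3.65 for the CYP707A1 match, 3.04 to 3.51 for the NCED3 match and 1.19 to 1.72 for Glyma01g39310.

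**Figure D3:**
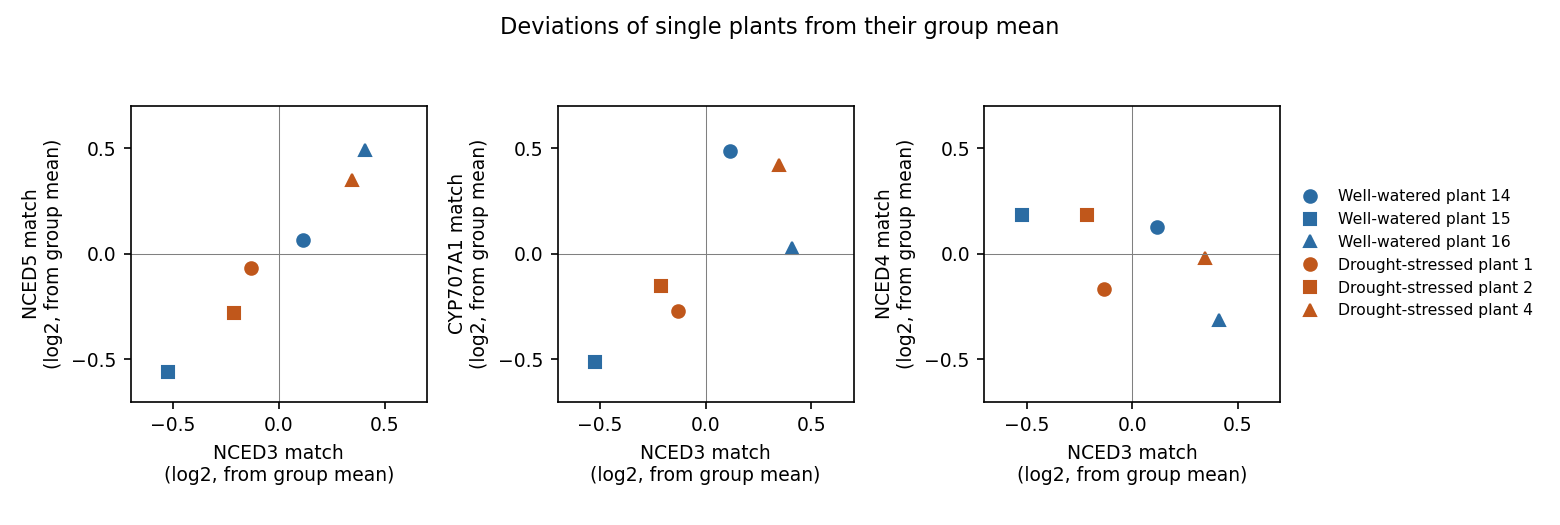
Deviation of each plant from its group mean for the NCED3 match (horizontal axes, log2) against that of the NCED5, CYP707A1 and NCED4 matches (vertical axes, log2). The plants fall along a line for NCED5, more loosely for CYP707A1, and well-watered plants 15 and 16 lie at opposite corners for NCED4.

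Other genes of the pathway were described with the same fit. The last step is carried out by the aldehyde oxidase AAO3, which needs a molybdenum cofactor sulfurated by ABA3. Their matches Glyma14g04950 and Glyma09g00460 were both called higher, but the study listed them from these samples, so the 2 of 2 are not independent evidence. Glyma14g04950 stood at -0.68, -1.07 and -1.33 in well-watered plants and 0.68, 1.17 and 1.34 in drought-stressed plants, a difference of 2.09 (SE 0.23). The difference was close to that of the epoxidase Glyma11g05960, with a within-plant shift of 0.02 (SE 0.22) between these genes.

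Glyma09g00460 stood at -0.78, -0.36 and -0.65 against 0.36, 0.53 and 0.59, a difference of 1.09 (SE 0.17). It passed the fold of 2 by 0.09 and missed it, at 0.98, when arrays were weighted by quality.

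Other carotenoid or strigolactone enzymes were taken from the first annotation rows that describe them, all on chromosome 1. They do not stand for whole branches. Of 3 such genes, 0 were called in either direction, against 9.46% of all probes. The unadjusted limma p was under 0.05 for 1 of them, as for 26.5% of all probes. With so few genes, nothing is read from these counts. The match of CCD7, a dioxygenase of strigolactone synthesis, differed by -0.13 (Glyma01g14170, SE 0.27, limma adjusted p = 0.85). The match of geranylgeranyl pyrophosphate synthase, which makes a carotenoid precursor, differed by -0.24 (Glyma01g38480, SE 0.22, limma adjusted p = 0.61). The match of the cytochrome P450 CYP97B3 differed by 0.53 (Glyma01g43610, SE 0.21, limma adjusted p = 0.14).

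**Figure D4:**
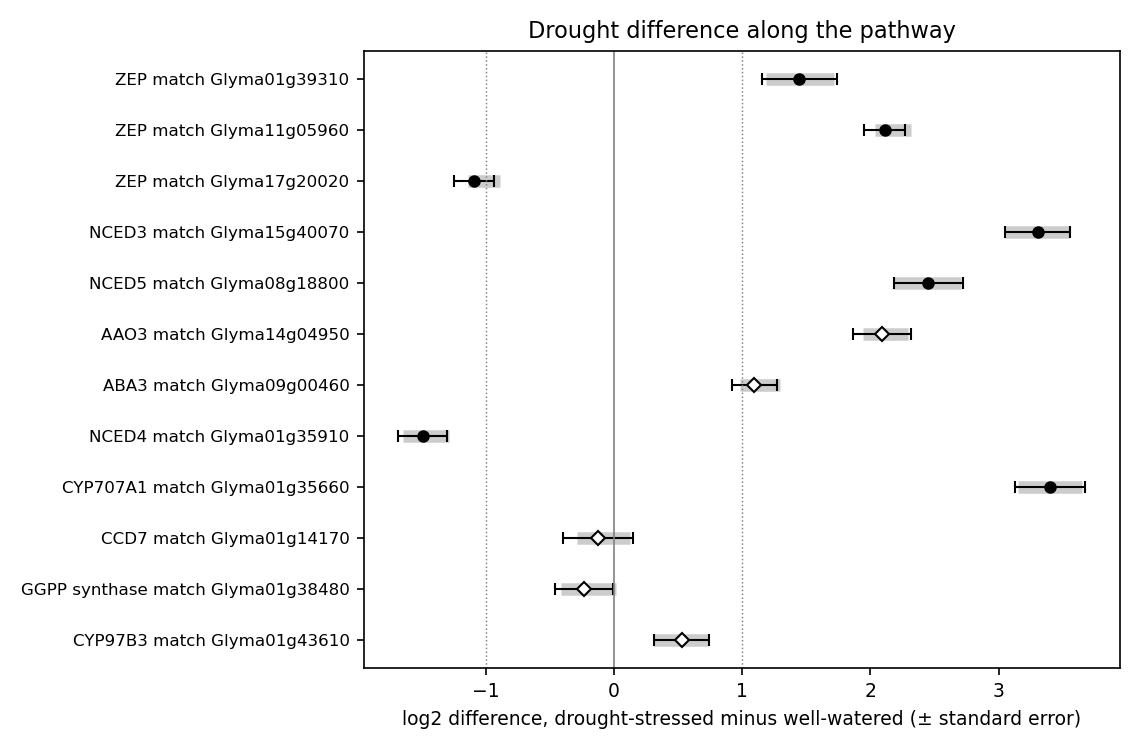
Log2 difference of drought-stressed minus well-watered plants (horizontal axis) with its standard error for the 7 genes (filled circles) and 5 other pathway genes (open diamonds). Grey bars span the values under all alternative settings and dotted lines mark a fold of 2. CYP707A1 and NCED3 matches lie farthest right at 3.40 and 3.30, and the grey bars of the CCD7 and GGPP (geranylgeranyl pyrophosphate) synthase matches cross 0.

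Position in the genome was not used to choose the genes, and gene IDs number soybean genes in order along each chromosome. Of the 14 gene IDs that lie next to the 7 genes, 2 were called higher and 1 lower, 21.4% against 9.46% of all probes. Their median difference was -0.04. Over the 42 IDs within 3 places on each side the share was 9.52%. Thus 11 of the 14 adjacent IDs were not called. Both IDs flanking the NCED5 match differed by little (Glyma08g18790 by 0.07 and Glyma08g18810 by 0.14), as did those flanking Glyma17g20020 (Glyma17g20010 by -0.11 and Glyma17g20030 by 0.18).

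The 3 neighbours that were called moved in the direction of the gene beside them. Glyma11g05950, before the rising Glyma11g05960, ran against it, with a difference of -0.76 (SE 0.17, limma adjusted p = 0.010) that did not reach the fold of 2. Glyma01g35650, an epsilon-adaptin-like gene before the CYP707A1 match, stood at -0.85, -0.73 and -0.69 in well-watered and 0.81, 0.80 and 0.69 in drought-stressed plants. Its difference of 1.52 (SE 0.16, limma adjusted p = 9.1e-05) was smaller than the 3.40 of the CYP707A1 match. Glyma15g40060, before the NCED3 match, differed by 1.02 (SE 0.22, limma adjusted p = 0.0097). The methods' t-test gave it an adjusted p of 0.11, so it was not called there. It fell short of the fold of 2 when well-watered plant 14 or 15 or drought-stressed plant 1 or 4 was left out, at 0.90, 0.95, 0.98 and 0.88.

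Glyma01g35900, before the NCED4 match, stood at 1.04, 1.14 and 0.41 in well-watered plants and -0.41, -0.48 and -0.55 in drought-stressed plants. It fell by 1.35 on the log2 scale (SE 0.21, limma adjusted p = 0.0014), close to the -1.49 of the NCED4 match itself. As for that gene, well-watered plant 15 was its highest plant and plant 16 the lowest of the well-watered group. With the methods' t-test its adjusted p was 0.050 and it was not called. No description of Glyma01g35900 was found in the tables used, and whether it is a separate gene from its neighbour was not tested.

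The CYP707A1 match and the NCED4 match, which moved in opposite directions, lie on the same chromosome, 1, with 23 gene IDs between them. Of these 23, 0 were called higher by limma and 1 lower, Glyma01g35900 (4.35%, against 9.46% of all probes), and 4 had an unadjusted p under 0.05, as did 26.5% of all probes. Under the methods' t-test 0 were called in either direction. The median was -0.08 and the range -1.35 to 0.99. The highest, Glyma01g35740 at 0.99 (SE 0.23, limma adjusted p = 0.015), lay just under the fold of 2 and passed it, at 1.19, with the authors' shift undone, and at 1.24 without drought-stressed plant 2.

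Some genes of this stretch have matches that lie close together in *Arabidopsis*. There, NCED4 (AT4G19170) and CYP707A1 (AT4G19230) also lie near each other, on chromosome 4, and 4 of the 10 interval genes with a listed match were matched to loci between them. These 4 were a pentatricopeptide repeat protein (Glyma01g35700, -0.49), the RNase L inhibitor-like ATRLI2 (Glyma01g35730, 0.28), a zinc knuckle protein (Glyma01g35790, 0.09) and a nucleoside phosphatase family protein (Glyma01g35850, -0.14). None of these 4 was called, against 9.46% of all probes, and nothing is read from so few genes. The other listed matches in the interval lay elsewhere, among them AT1G31770 (Glyma01g35800) and AT1G31780 (Glyma01g35820) on chromosome 1. Whether the order of genes is shared was not tested.

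Outside the pair, called genes lay on both flanks. Of the 10 gene IDs before the CYP707A1 match, 5 were called higher and 0 lower, and of the 10 after the NCED4 match, 0 were called higher and 2 lower. Over all probes the shares were 4.33% higher and 5.14% lower. These flanks were examined after their values had been seen. The alcohol oxidase-related Glyma01g35620, 4 IDs before the CYP707A1 match, stood at -2.50, -1.57 and -2.11 against 1.94, 1.57 and 1.98. Its difference of 3.89 (SE 0.24) was larger than that of any of the 7 genes.

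**Figure D5:**
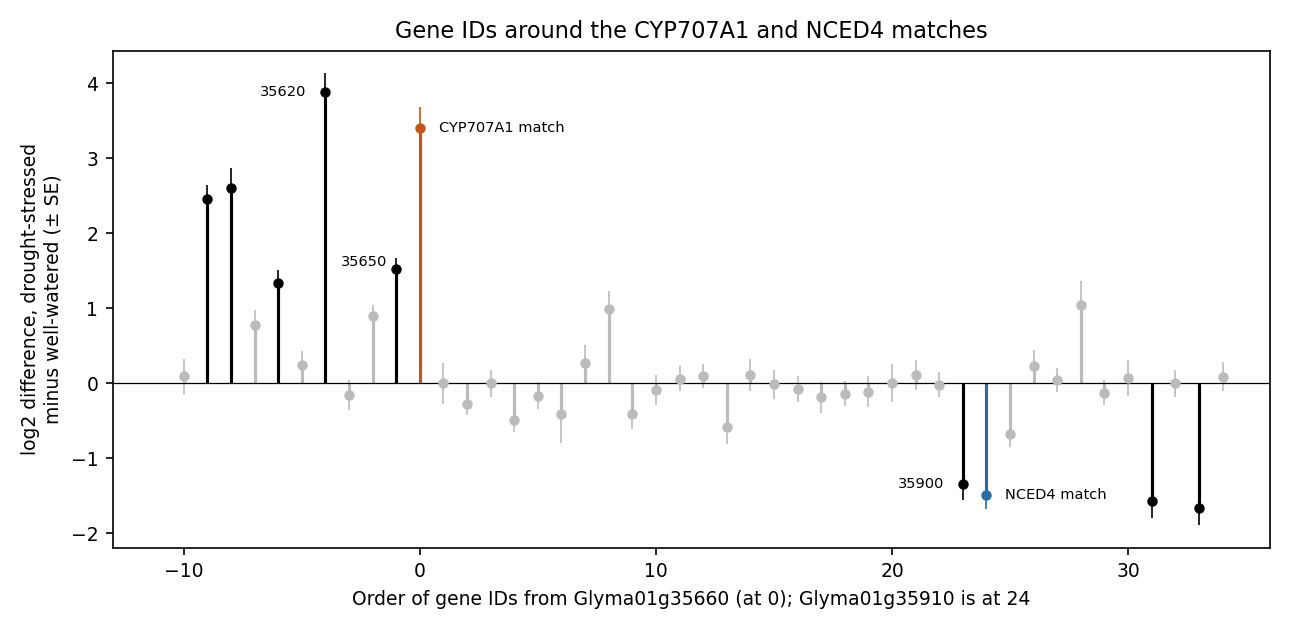
Log2 difference of drought-stressed minus well-watered plants with its standard error (vertical axis) for consecutive gene IDs on chromosome 1 (horizontal axis, order counted from the CYP707A1 match). Black marks called genes, grey those not called, orange the CYP707A1 match at 3.40 and blue the NCED4 match at -1.49. The 23 genes between them hold 1 called gene, Glyma01g35900, beside the NCED4 match.

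The probes most like each gene over the 6 plants were found by Pearson's r, which ignores the size of a change. These values share the same 6 arrays and the split between the groups, and are a description. For Glyma11g05960 the nearest were Glyma07g12780 and Glyma01g42520 (both r = 0.9999), whose own drought differences were 7.93 and 1.86, and 436 probes had r over 0.99. For Glyma17g20020 they were Glyma11g05550 (r = 0.9993) and Glyma01g41520 (r = 0.9992), the latter the match of the ethylene response factor ERF2, which fell by 1.31 on the log2 scale. For Glyma01g39310 they were Glyma16g08210 (r = 0.9983) and Glyma08g19780 (r = 0.9969), and only 26 probes had r over 0.99.

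For the NCED3 match, the nearest were Glyma10g27980 (r = 0.9998) and Glyma04g35040 (r = 0.9996), with differences of 2.69 and 2.75. The NCED5 match was closest to Glyma14g35060 (r = 0.9989) and Glyma18g44830 (r = 0.9987). The NCED4 match was closest to Glyma18g34540 (r = 0.9994) and Glyma04g02210 (r = 0.9989), which differed by -1.48 and -1.95. For the CYP707A1 match the nearest were Glyma16g31050 (r = 0.9997) and Glyma16g30400 (r = 0.9995), which differed by 1.83 and 1.86. No gene of the 7 was among the 2 nearest of another.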

How the data were processed

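RNA of 6 single leaves was hybridised by the authors to Affymetrix Soybean Gene 1.0 ST arrays. The authors summarised signals by RMA in Affymetrix Expression Console, shifted each array to its upper-quartile signal and deposited log2 values with a median of 0 for every probe. Array medians ran from -0.097 to 0.13. An offset that lowered drought-stressed against well-watered values by 0.203 log2 was estimated here over 1997 rows of the study's values before and after normalization. It is called the authors' shift, although its origin is not stated. One alternative undid it. A second deposited table holds the authors' comparison, a fold change (score) and p-values, which were not used beyond gene IDs.

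All 66195 probes were fitted with lmFit and eBayes (limma 3.58.1, R 4.3.3) for 3 against 3 plants, with 4 residual and 5.93 prior degrees of freedom, and adjusted over all probes. The fit was also run on simulated data with independent normal noise and few changed probes. That run checks the code only and does not reproduce shifts that a whole array shares. The median SE was 0.19, and the number of arrays limits the precision. An exact permutation test of 3 against 3 cannot go below 0.1 and was not used. Each limma p-value sets a group difference against the spread between these plants, moderated over all probes. It covers no spread between experiments.

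The genes and lists were chosen with earlier results of these data known. Named are the 7 genes, the listed pathway genes, called neighbours and interval genes, and the 2 probes with the highest r to each gene. Matches to *Arabidopsis* come from the rows of the study's annotation used here, which name 1968 gene IDs. Gene IDs of this annotation had 0 matches in the RefSeq table at hand, so sequences were not used here. Alternatives covered scaling, the authors' shift, array weights, the test, the fold minimum, the neighbour window and leaving out each plant.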

Additional observations from a re-analysis of the deposited data

How the results depend on the processing

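The groups did not overlap for any of the 7 genes, so leaving out 1 plant could not reverse a direction. The genes were also chosen on this contrast, so kept directions are no support for them. All 7 genes kept their direction in the 70 alternative values computed, and 68 of these moved by less than the spread between plants. The other 2 came from undoing the authors' shift, which moves every probe's difference by 0.203 and gave 2.32 for Glyma11g05960 and -0.89 for Glyma17g20020, the latter under a fold of 2. Leaving out 1 plant gave 2.03 to 2.17 for Glyma11g05960, -1.14 to -1.03 for Glyma17g20020, 2.17 to 2.70 for the NCED5 match and -1.65 to -1.40 for the NCED4 match. Among all probes, calls higher and lower were 2864 and 3401 in the fit reported, 1808 and 2000 under the methods' t-test, 4968 and 5555 at a fold of 1.5, and 5131 and 5706 with no fold minimum. Of the 5 other pathway genes, 1 instead of 2 was called higher with array quality weights. Of the 14 neighbours, 1 was called higher and 0 lower with the t-test, 3 were called lower at a fold of 1.5 and 3 with no fold minimum, and 1 to 2 were called higher when 1 plant was left out. Of the 23 interval genes, 1 was called higher with median centring, quantile normalisation, the authors' shift undone, a fold of 1.5 or no fold minimum, 0 to 1 when 1 plant was left out, and 0 were called lower with the t-test. Glyma01g14170, not called, turned to 0.0775 with the authors' shift undone and 0.0777 with array weights, and ranged from -0.29 to 0.12 when 1 plant was left out (0.12 without well-watered plant 14 or drought-stressed plant 4). Glyma01g38480 ranged from -0.42 to 0.0124, the latter without well-watered plant 14. The cause was not tested.

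No paired analysis was possible because the plant numbers of the groups are not shared. The planned lists of sequence relatives and of further annotated pathway genes were not run, since they needed sequences or a reference annotation tied to these gene IDs, and the study's annotation was used only in part. Signal over background is unknown, because the values are centred per probe.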
